A study of Mus musculus with 8 samples.

Results

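The Dlk1-Dio3 cluster on distal mouse chromosome 12 holds a large group of imprinted miRNAs, and its mature miRNAs were followed here across cells and extracellular vesicles (EVs) of a hepatocyte line. The members were the mature mouse miRNAs whose number belongs to the cluster, which gave 102 of the 1978 mouse miRNAs in the count table, from 52 hairpin names. By RefSeq positions on the GRCm38 assembly, 101 of the 102 lay on chromosome 12, and the remaining one, miR-496b, was placed on chromosome 19 and had 0 reads. The rule left out 13 miRNAs that lie in the cluster under other numbers, of which only miR-432 was read, with 4 counts in shPCBP2 cell replicate 2.

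Small RNA was sequenced from 3A cells, which are non-tumorigenic murine hepatocytes, and from EVs pelleted by ultracentrifugation from the medium that the cells had conditioned for 72 h. The medium contained serum depleted of EVs. Cells stably carried a retroviral shRNA under puromycin selection, either a scrambled control (shCTR) or an shRNA against the RNA-binding protein PCBP2 (shPCBP2), which gave the groups shCTR cells, shPCBP2 cells, shCTR EVs and shPCBP2 EVs, each with 2 biological replicates. The level of PCBP2 was not measured by these libraries. Every sample received the nematode miRNA cel-miR-39 as a spike-in, and the word level below means reads per 1000000 spike-in reads.

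The cluster is expressed from the maternal chromosome as long non-coding transcripts, among them Meg3, Rian and Mirg, from which the miRNA hairpins are cut, while Dlk1, Rtl1 and Dio3 are expressed from the paternal chromosome. The miRNAs are abundant in the embryo, the placenta and the brain and are mostly low in the adult liver. A mature miRNA recognises its target mRNAs mainly through its seed, the bases 2 to 8 from its 5′ end.

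The mature sequences that follow are those of the members that could be tested, of their opposite arms that were read, and of the pair of members that share a seed and were both read in EVs. miR-433-3p, miR-493-5p and miR-409-5p were added after their values were seen, because they were read in all 4 EV libraries and in no cell library. The sequences are from RefSeq (GRCm38), 5′ to 3′, with the seed in capitals.
miR-127-3p: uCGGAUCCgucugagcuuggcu
miR-127-5p: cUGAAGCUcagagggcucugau
miR-369-3p: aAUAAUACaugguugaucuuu
miR-369-5p: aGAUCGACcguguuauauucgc
miR-379-5p: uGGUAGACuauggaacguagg
miR-379-3p: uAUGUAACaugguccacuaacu
miR-411-3p: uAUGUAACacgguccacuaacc
miR-494-3p: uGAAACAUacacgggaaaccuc
miR-433-3p: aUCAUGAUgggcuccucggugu
miR-493-5p: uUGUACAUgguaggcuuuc
miR-409-5p: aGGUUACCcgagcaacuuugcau
The seed AUGUAAC was shared by miR-379-3p and miR-411-3p, and among the 98 members with a mature sequence 8 pairs shared a seed. It was the only pair with both partners read in EVs. The mature sequences of miR-376c-3p and miR-487b-3p are not shown.

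Between 26391248 and 38166798 reads were counted per library. The spike-in took 57.4 to 66.9% of the reads in cell libraries and 97.6 to 98.4% in EV libraries, which left 8745848 to 12732173 mouse miRNA reads per cell library and 503070 to 687592 per EV library. Marker miRNAs of hepatocytes made up 2.41 to 2.86% of mouse miRNA reads in cells and 0.888 to 1.24% in EVs. Within this list miR-194-5p carried most reads, whereas miR-122-5p, the defining miRNA of hepatocytes, was scarce in the line, with 356 counts in the lowest cell library and 795 to 2327 per EV library.

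Of the 102 members, 30 were read in at least 1 library and 72 in none. In EVs 26 members were read, which was 25.5% of the members against 13.5% of all mouse miRNAs. In cells 11 members were read, or 10.8% against 39.0% of all mouse miRNAs, although cell libraries held far more mouse miRNA reads. There were 7 members read in both, 19 in EVs only and 4 in cells only. The table held 28 mouse miRNAs read in EVs and in no cell library, and the 19 members were 67.9% of them and 18.6% of the members, whereas members were 5.16% of the table. The other 9 of these were miR-142a-3p, miR-142a-5p, miR-144-3p, miR-144-5p, miR-199b-5p, miR-204-3p, miR-223-5p, miR-451a and miR-5119.

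**Figure D1:**
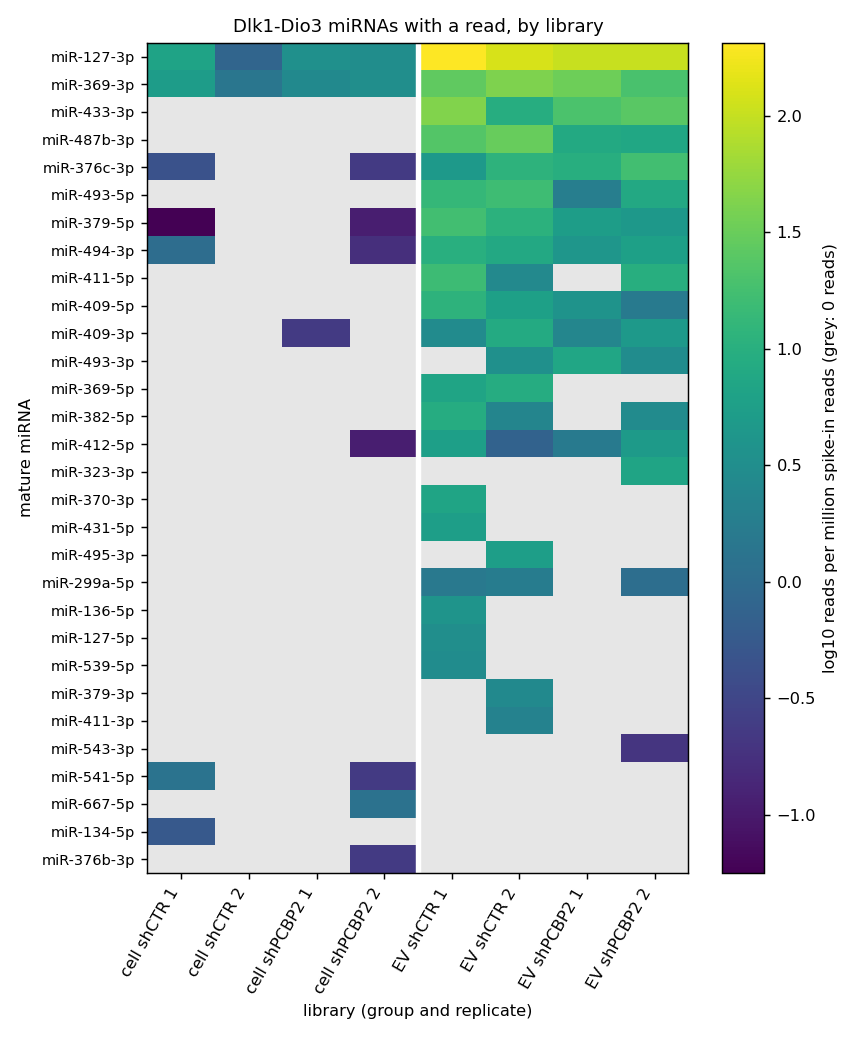
Level of the 30 members with a read (rows, ordered by summed EV counts) in each of the 8 libraries (columns), as log10 of the level, with grey for 0 reads. miR-127-3p and miR-369-3p were read in all 8 libraries, and 19 members show colour only in EV columns.

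Summed over the members, the counts were 271 and 35 in shCTR cells, 113 and 153 in shPCBP2 cells, 11650 and 7828 in shCTR EVs, and 7518 and 6845 in shPCBP2 EVs. As a share of mouse miRNA reads this was 0.00213 and 0.000299% in shCTR cells, 0.00129 and 0.00121% in shPCBP2 cells, 1.69 and 1.41% in shCTR EVs, and 1.22 and 1.36% in shPCBP2 EVs. Every EV library thus lay far above every cell library, and shCTR cell replicate 2 was the lowest library. Relative to the spike-in the summed level was 15.2, 2.22, 6.40 and 8.59 in cells in the same order and 419.6, 300.7, 200.2 and 225.1 in EVs. The mean of the 4 EV libraries was 1.42% ± 0.201 (SD) as a share and 286 ± 98.5 relative to the spike-in, which was 1153 and 35.3 times the mean of the cell libraries on the respective scales. Both values are descriptions of the sum, and no test was made on it. In bulk libraries, fewer cells or vesicles that carry a miRNA and fewer copies in each cannot be told apart.

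Marker miRNAs of blood cells were high in the same libraries. The erythroid list (miR-451a, miR-486a-5p, miR-486b-5p and miR-144-3p) made up 0.00135 to 0.00317% of mouse miRNA reads in cells and 9.63 to 11.5% in EVs, and its markers miR-451a and miR-144-3p were at 0 in all 4 cell libraries. miR-486a-5p and miR-486b-5p have near-identical sequences, so their separate counts are uncertain. The leukocyte list held 0.000111 to 0.000707% in cells and 1.37 to 1.70% in EVs, with miR-142a-3p at 0 in every cell library, and 2 of its 4 miRNAs and 2 of the 4 erythroid ones could be tested, all of them higher in EVs by edgeR's quasi-likelihood test. The mesenchymal list held 0.00134 to 0.00305% in cells and 0.394 to 0.709% in EVs, and the endothelial list 0.0174 to 0.0228% and 0.489 to 0.880%. By the same test, all 4 tested mesenchymal miRNAs were higher in EVs in both shRNA groups, and 0 of the 2 endothelial ones were. Of all 180 miRNAs tested, 6.67% were higher in shCTR and 7.78% in shPCBP2. The EVs came from cultures of the 3A line, in medium with serum depleted of EVs. The origin of the marker reads and of the member reads in EVs was not tested.

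**Figure D2:**
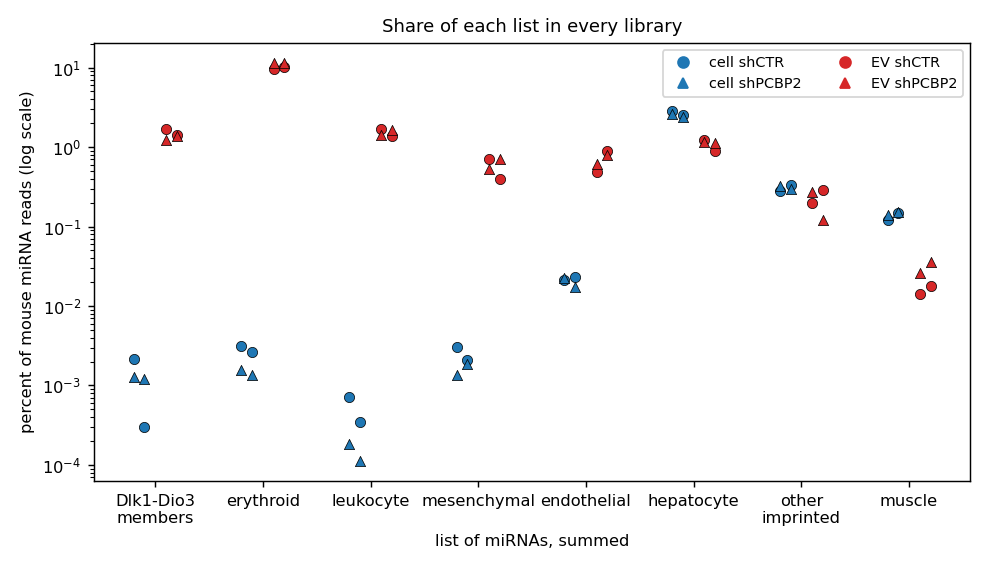
Summed share of mouse miRNA reads (percent, log axis) for the members and 7 lists of miRNAs in each library, with cells in blue, EVs in red, circles for shCTR and triangles for shPCBP2. The members lie at 1.22 to 1.69% in EVs and at 0.000299 to 0.00213% in cells. The erythroid, leukocyte, mesenchymal and endothelial lists are separated in the same direction.

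Apart from the hepatocyte list given above, the remaining lists had lower shares in EVs than the erythroid, leukocyte, mesenchymal and endothelial lists. The muscle list held 0.121 to 0.153% of mouse miRNA reads in cells and 0.0140 to 0.0354% in EVs. The epithelial list had 0.0193 to 0.0295% in cells and 0 reads in 3 of the EV libraries. In shPCBP2 EV replicate 1 it had 256 reads, or 0.0414%, which was above every cell library. The neural list held 0.00643 to 0.00989% in cells and 0.0145 to 0.0668% in EVs. The 10 miRNAs of other imprinted loci (Mest, Igf2, H19 and Gnas) held 0.280 to 0.332% in cells and 0.119 to 0.288% in EVs, and of the 4 that could be tested 0 were higher in EVs, while 1 was lower in shCTR and 2 were lower in shPCBP2. Their median log2 difference between EVs and cells was -3.93 in shCTR and -5.88 in shPCBP2, beside -4.93 and -4.90 over all 180 miRNAs tested. Of all 180, 59.4% were lower in EVs in shCTR and 60% in shPCBP2. Of the 80 miRNAs from the large cluster in an intron of Sfmbt2, another imprinted gene, 21 were read in cells and 0 in EVs.

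miR-127-3p, which lies antisense to the paternally expressed Rtl1 and is known to help silence it in the placenta, had the most reads of the members in EVs, and in cells when the 4 libraries were pooled. Its counts were 117 and 13 in shCTR cells, 61 and 55 in shPCBP2 cells, 5714 and 3305 in shCTR EVs, and 3832 and 3119 in shPCBP2 EVs. Its level was 6.57, 0.826, 3.46 and 3.09 in cells and 205.8, 127.0, 102.1 and 102.6 in EVs, with no overlap between the compartments. It ranked 33 among mouse miRNAs by summed EV counts and 280 by summed cell counts, and it made up 35.9 to 54.0% of the member reads of a library.

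miR-369-3p, from a hairpin inside Mirg, was the other member read in every library. Its counts were 93, 22, 48 and 57 in cells and 768, 1100, 1267 and 592 in EVs, with shCTR before shPCBP2. In replicate 2 of both cell groups it had more counts than miR-127-3p. The compartments did not overlap relative to the spike-in either, at 1.40 to 5.22 in cells and 19.5 to 42.3 in EVs. Pooled over libraries, its EV/cell ratio was 9.60 (95% counting interval 8.38 to 11.1), the smallest of the 5 tested members, whereas that of miR-127-3p was 36.8 (32.4 to 41.9). Such intervals are exact for independent reads pooled over libraries and leave out the spread between libraries. They are also too narrow where several reads stem from 1 molecule, because the table counts reads and not molecules.

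miR-376c-3p, miR-379-5p and miR-494-3p were read in all 4 EV libraries but in only 2 cell libraries, shCTR cell replicate 1 and shPCBP2 cell replicate 2. miR-379-5p, which gives its name to the large distal group of hairpins, had 1 and 2 counts in these cell libraries and 475, 282, 203 and 137 in EVs. miR-376c-3p, of a family whose precursors are known to undergo A-to-I editing, had 8 and 4 counts in cells and 131, 298, 361 and 523 in EVs. miR-494-3p had 19 and 3 counts in cells and 272, 206, 156 and 184 in EVs. The pooled EV/cell ratios were 207 (70.7 to 1007) for miR-379-5p, 62.0 (35.4 to 120) for miR-376c-3p and 21.1 (13.8 to 33.8) for miR-494-3p.

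The first comparison asked which members were higher or lower in EVs than in cells. Only the 5 members just described passed the filter of the study, at least 1 read in 2 or more cell libraries and in 2 or more EV libraries, so the members that could be tested were those with cell reads. In shCTR, 3 of the 5 were higher in EVs at an adjusted p under 0.05 and 0 were lower, where 6.67% of the 180 miRNAs tested were higher and 59.4% were lower (edgeR's quasi-likelihood test, Benjamini-Hochberg). The log2 differences were 5.49 ± 1.16 (SE) for miR-127-3p (adjusted p = 0.0058), 3.40 ± 0.99 for miR-369-3p (adjusted p = 0.0223) and 8.67 ± 1.92 for miR-379-5p (adjusted p = 0.00718) by edgeR. miR-376c-3p and miR-494-3p had log2 differences of 5.12 ± 2.15 (edgeR adjusted p = 0.0764) and 4.03 ± 2.12 (adjusted p = 0.132) and did not pass. The median was 5.12 over the 5 members and -4.93 over all 180 miRNAs. Without shCTR cell replicate 2, which held 35 member reads, 1 of the 5 was higher. Without shCTR cell replicate 1 the median of the members moved to 10.64, a fitted value that depends on the prior count, since miR-376c-3p, miR-379-5p and miR-494-3p had 0 reads in the cell library that was left.

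In shPCBP2, 4 of the 5 were higher in EVs and 0 were lower, where 7.78% of the 180 miRNAs were higher and 60% lower. The edgeR log2 differences were 4.96 ± 1.13 for miR-127-3p (adjusted p = 0.00805), 3.17 ± 0.98 for miR-369-3p (adjusted p = 0.0279), 6.83 ± 2.34 for miR-376c-3p (adjusted p = 0.0402) and 6.33 ± 1.73 for miR-379-5p (adjusted p = 0.0170). miR-494-3p had 5.83 ± 2.35 (edgeR adjusted p = 0.0660). The median was 5.83 over the members and -4.90 over all miRNAs tested. Leaving out shPCBP2 cell replicate 1 left 0 of the 5 called, and leaving out shPCBP2 cell replicate 2 left 1. In the latter case the median moved to 9.94, again with 0 reads of the same 3 members in the remaining cell library.

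The scale decided how the background looked but not the direction of the members. With library sizes set by the total mouse miRNA count, the median of all miRNAs moved from -4.93 to 0.060 in shCTR and from -4.90 to 0.30 in shPCBP2, and the median of the 5 members moved to 10.08 and 11.04. The calls over all miRNAs changed from 12 higher and 107 lower to 43 higher and 32 lower in shCTR, and from 14 and 108 to 54 and 35 in shPCBP2. All 5 members were then higher in EVs in both, beside 23.9 and 30% of all miRNAs tested.

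**Figure D3:**
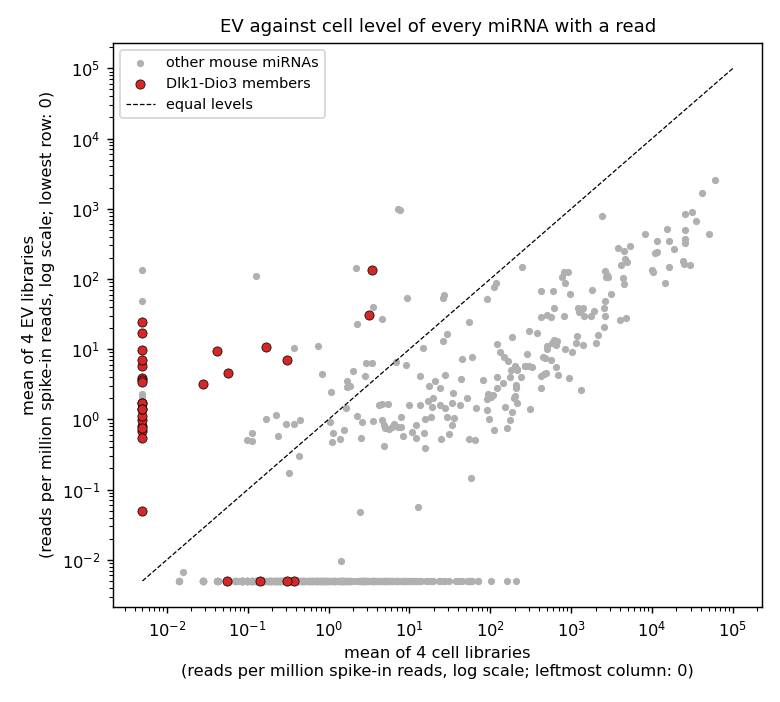
Mean of the 4 EV libraries against the mean of the 4 cell libraries for each of the 800 mouse miRNAs with a read, as levels on log axes. Members are red, other miRNAs grey, the dashed line marks equal levels, and miRNAs with 0 reads in a compartment are drawn in the leftmost column or the lowest row. The 26 members read in EVs lie above the dashed line, and the 4 members read only in cells lie on the lowest row.

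Members without cell reads could not pass that filter. Among the 30 members with a read, 11 had a higher level in all 4 EV libraries than in all 4 cell libraries. Of the 800 miRNAs with a read, 3% did. To be higher throughout, a miRNA needed reads in all 4 EV libraries, and 533 of the 800 were read only in cells. For the 4 members read in all 4 EV libraries and in no cell library, this direction was fixed by detection. The 2 shares are therefore given as a description. To be lower throughout, a member needed reads in all 4 cell libraries, which only 2 had. That 0 were lower, where 41.1% of the 800 were, was thus fixed by detection for the other members. These 11 were the 5 tested members, miR-409-3p and miR-412-5p with single cell libraries of 4 and 2 counts, and miR-433-3p, miR-487b-3p, miR-493-5p and miR-409-5p with no cell read. As a share of mouse miRNA reads 11 members were again higher throughout, beside 8% of all.

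miR-433-3p, a neighbour of miR-127 that also lies antisense to Rtl1, had 1189 and 244 counts in shCTR EVs and 755 and 767 in shPCBP2 EVs. With an assumed 3 counts over the 4 cell libraries, where it had no read, its pooled level was 558-fold higher in EVs. Such values leave out the spread between libraries and the counting error in EVs, so they are no strict lower bounds. The direction was fixed by detection, because the miRNAs given such values were taken for having no cell read. miR-487b-3p had 631, 798, 310 and 227 counts in EVs and was 371-fold higher on the same assumption. On this assumption miR-493-5p, with 369, 425, 70 and 239 counts, was 208-fold higher. miR-409-5p, with 319, 154, 144 and 51, was 126-fold higher. These 4 miRNAs made up 8.73, 5.81, 3.26 and 1.97% of the member reads in EVs.

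miR-409-3p, the opposite arm of miR-409-5p, had 81, 222, 92 and 140 counts in EVs and 4 counts in shPCBP2 cell replicate 1, an EV/cell ratio of 75.8 (29.4 to 279). miR-412-5p had 159, 19, 61 and 149 counts in EVs and 2 counts in shPCBP2 cell replicate 2, a ratio of 110 (30.2 to 911). Their intervals overlap, so no order between them can be read.

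With the wider filter of 1 or more reads in any 2 libraries, 17 members were among the 598 miRNAs tested. In shCTR 10 of them were higher in EVs by edgeR beside 3.85% of all, and in shPCBP2 8 were, beside 3.51%. Members that enter this filter only through EV reads had to differ in this direction, so these counts are given as a description. The fitted log2 differences of such miRNAs depend on the prior count and are not quoted, nor are their p-values.

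Many members were read in part of the EV libraries only. There were 11 read in all 4 EV libraries, 4 in 3, 1 in 2 and 10 in 1. miR-411-5p had 433, 70, 0 and 290 counts, miR-382-5p had 253, 61, 0 and 89, miR-493-3p had 0, 89, 267 and 91, and miR-299a-5p had 43, 46, 0 and 33, in shCTR EVs and then shPCBP2 EVs. Of the 10 members read in a single EV library, 5 were in shCTR EV replicate 1 (miR-127-5p, miR-136-5p, miR-370-3p, miR-431-5p and miR-539-5p), 3 in shCTR EV replicate 2 (miR-379-3p, miR-411-3p and miR-495-3p) and 2 in shPCBP2 EV replicate 2 (miR-323-3p and miR-543-3p).

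Apart from the 6 counts of miR-543-3p, these single values were above 40. miR-370-3p had 189 counts in shCTR EV replicate 1 and 0 in the other EV libraries, and miR-323-3p had 208 in shPCBP2 EV replicate 2 alone. Of the 68 nonzero counts of members in EV libraries, 3 were under 40, whereas 15 of the 21 nonzero counts in cell libraries were. The detection of a member in a single EV library was not reproduced by the other library of its group.

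The 4 members read only in cells had few reads. miR-541-5p had 23 counts in shCTR cell replicate 1 and 4 in shPCBP2 cell replicate 2, and miR-667-5p had 22 in shPCBP2 cell replicate 2. miR-134-5p, known in neurons for its effect on dendritic spines, had 10 counts in shCTR cell replicate 1, and miR-376b-3p had 4 in shPCBP2 cell replicate 2. EV libraries held fewer mouse miRNA reads but more spike-in reads than cell libraries, so how far depth limited the detection of these members in EVs depends on the scale.

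The hairpins lie in 3 stretches on chromosome 12 of GRCm38, and are on the plus strand apart from Mir299b, which lies on the minus strand and whose arms had 0 reads. The stretch from Meg3 (chr12:109541001-109571726) to Rtl1 (chr12:109589193-109600330, minus strand) held 22 members, of which 7 were read in EVs with 20829 reads, or 61.5% of the member reads. The 4 members within Rian (chr12:109603940-109661716) gave 189 reads, all of miR-370-3p. The stretch from Mir379 through Mirg (chr12:109729764-109749460) held 75 members, of which 18 were read in EVs with 12823 reads, or 37.9%. In cells the stretches had 246, 0 and 326 reads.

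In the stretch from Meg3 to Rtl1, the hairpins of miR-431, miR-433 (chr12:109591715-109591838), miR-127 (chr12:109592846-109592915) and miR-136 lie within Rtl1 on its opposite strand, and miR-493 (chr12:109580233-109580315) lies between the genes. In the distal stretch, miR-379 (chr12:109709060-109709125), miR-411 (chr12:109710175-109710256), miR-494 (chr12:109715318-109715402), miR-376c (chr12:109722718-109722803) and miR-487b (chr12:109727333-109727414) precede Mirg, while miR-382, miR-409 (chr12:109743158-109743236), miR-412 and miR-369 (chr12:109743418-109743496) lie within it. Reads in EVs thus came from both ends of the cluster, and hairpins without reads lay between those with reads.

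**Figure D4:**
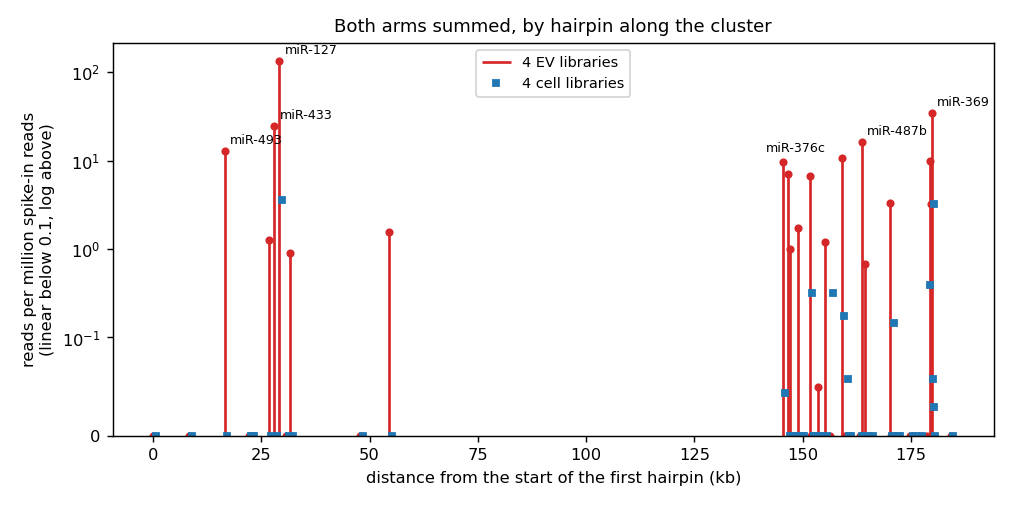
Level of each hairpin of the cluster (both arms summed and 4 libraries pooled, on an axis that is linear below 0.1 and log above) against its distance in kb from the start of the first hairpin, with EVs in red and cells as blue squares drawn slightly to the right. The 6 hairpins with the highest EV level are named, and miR-127 and miR-369 are also those with the highest cell level.

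Each hairpin can yield a 5p and a 3p arm. Among the 50 hairpins with both arms in the table, 20 had EV reads, and the 5p arm led in 10 and the 3p arm in 10. Both arms were read in EVs for 6 hairpins. For miR-127 the 3p arm had 15970 EV reads against 89 for the 5p arm, and for miR-369 it had 3727 against 421. For miR-379 the 5p arm took 93.8% of EV reads and for miR-411 93.4%.

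The leading arm of miR-409 and miR-493 was not the same in every library. The 5p arm of miR-409 took 79.8 and 41.0% of the reads of both arms in shCTR EVs and 61.0 and 26.7% in shPCBP2 EVs. For miR-493 the 5p share was 100 and 82.7% in shCTR EVs and 20.8 and 72.4% in shPCBP2 EVs. The replicates of a group differed by more than the groups did for miR-409. For miR-493 both shPCBP2 values lay below both shCTR values, which was not tested. Its shPCBP2 replicates, at 20.8 and 72.4%, also lay further apart than the group means did.

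The study works with a retention motif, whose core is AUUA or AUUG, and with a longer degenerate export motif bound by the protein SYNCRIP. The mature sequences were searched for AUUA, AUUG and GGCU, on the mature strand only. GGCU is a short form of the export motif that the study does not name, and the degenerate motif itself was not searched. AUUG was found in 0 of the 98 members with a sequence, against 6.79% of the 1679 mature mouse miRNAs of the table with a sequence and 16.0% of the 156 tested ones. AUUA was in 4 of the 98 members, or 4.08% against 2.50%, and in 0 of the 156 tested miRNAs. It was in 2 of the 24 members with both a sequence and EV reads, or 8.33%. GGCU was in 10 members, or 10.2% against 13.3%, and in 15.4% of the 156 tested miRNAs. Of the 24 members, 4 or 16.7% held it, namely miR-127-3p, miR-127-5p, miR-433-3p and miR-493-5p. A match describes the letters only and does not show that a protein binds there.

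The other comparisons asked whether PCBP2 silencing altered the members. Of the 5 tested members, 0 passed for a different EV/cell ratio in shPCBP2 and shCTR, where 2.22% of the 180 miRNAs did, and edgeR's adjusted p was 0.992 for each. The log2 change of the ratio was -0.52 ± 1.36 (SE) for miR-127-3p, -0.23 ± 1.28 for miR-369-3p, 1.71 ± 2.65 for miR-376c-3p, -2.34 ± 2.23 for miR-379-5p and 1.80 ± 2.72 for miR-494-3p. These errors leave room for changes of several fold in either direction. The medians were -0.23 over the members and -0.079 over all tested miRNAs.

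Between shPCBP2 EVs and shCTR EVs 0 of the 5 members passed, where 7.22% of all tested miRNAs did. The edgeR log2 differences were -0.70 ± 0.96 for miR-127-3p (adjusted p = 0.806), -1.49 ± 1.35 for miR-379-5p (adjusted p = 0.674), -0.39 ± 0.90 for miR-369-3p, -0.79 ± 1.87 for miR-494-3p and 0.73 ± 1.79 for miR-376c-3p (adjusted p = 0.885 for each of the last 3). The median was -0.70 over the members and -0.54 over all miRNAs tested. In cells 0 of the 5 passed, as did 0% of the 180 miRNAs, with log2 differences from -2.59 ± 2.10 for miR-494-3p to 0.84 ± 1.70 for miR-379-5p. In these 3 comparisons 0 of the 5 members had an unadjusted p under 0.05, and DESeq2 also called 0.

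Without a test, 8 of the 26 members read in EVs had both levels of shPCBP2 EVs below both of shCTR EVs. This was near the share over all 267 miRNAs read in EVs, 31.5%, and 0 were higher beside 3.75%. The 10 members read in a single EV library could not be separated. The 8 were miR-127-3p, miR-299a-5p, miR-369-5p, miR-379-5p, miR-409-5p, miR-487b-3p, miR-493-5p and miR-494-3p. As a share of mouse miRNA reads 6 were lower, beside 14.2%, and 2 were higher, miR-376c-3p and miR-493-3p, beside 12.4%. In cells 0 of 11 members were separated by level in either direction, where 30.1% of the miRNAs read there were lower and 6.35% were higher. A separation needs reads in both libraries of a cell group, which only miR-127-3p and miR-369-3p had. The other members could not be separated, so the shares over all miRNAs are no measure for them.

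miR-369-5p and miR-487b-3p, singled out after their values were seen, had no overlap between shCTR and shPCBP2 EVs. miR-369-5p had 187 and 234 counts in shCTR EVs and 0 in both shPCBP2 EV libraries, and miR-487b-3p had levels of 22.7 and 30.7 in shCTR EVs and 8.26 and 7.46 in shPCBP2 EVs. With the wider filter neither passed at an adjusted p under 0.05 by edgeR. Both were picked by these same values, so no estimate or p-value is quoted for them.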

How the data were processed

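Per the paper's methods, the authors removed adapters and low-quality reads, kept forward reads, aligned them to miRBase hairpins plus the spike-in with mirPRo and NovoAlign, and deposited raw counts of reads per mature miRNA. The largest counts are printed there to 6 significant digits. Groups were taken from the sample titles. The members and lists were chosen with earlier results of these data known. edgeR 4.0.16 in R 4.3.3 fitted compartment, shRNA and their interaction over all 8 libraries, with the spike-in count as library size and a prior count of 0.125 (common dispersion 0.693, 4 residual degrees of freedom). Approximate standard errors were taken from the F statistic. Adjustment ran over all tested miRNAs. DESeq2 1.42.0, other scalings, filters, blocks and leaving out each library were alternatives. Sequences and positions came from RefSeq tables of GRCm38. Named members are those tested or called, then those with the most EV and cell counts, with their opposite arms. On simulated data for EVs against cells, the fit recovered most changes at a dispersion well below the fitted one but called none at the fitted one. The simulation covered all miRNAs with a read and not only those passing the filter, so it does not give the power of the tests above. A missing call is no evidence of no change. Replicate numbers were not shown to pair samples, and the titles and descriptions number shPCBP2 replicates differently.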

Additional observations from a re-analysis of the deposited data

How the results depend on the processing

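Members called higher in EVs numbered 3 of 5 in shCTR and 4 of 5 in shPCBP2. In shCTR the number was 5 with scaling by TMM, median of ratios or total miRNA count, beside 42, 40 and 43 of all 180 miRNAs. With no filter, 22 of 800 miRNAs were higher in shCTR and 21 in shPCBP2. With the any-2-libraries filter, 23 and 21 of 598 were. Members that enter these filters only through EV reads had to differ in this direction. In shCTR the number of members was 10 with no filter (of 30 tested) or the any-2-libraries filter (of 17). Leaving out 1 library gave 1 to 4. In shPCBP2 it was 8 with those filters, 2 when every library needed 10 counts, where only 2 members were tested in either comparison, and 0 to 5 leaving out 1 library. With the replicate block it was 3 and 2, and with a crossed block, chosen after seeing the data, 3 and 4. The correlations of same-numbered libraries ran from -0.31 to 0.047, so the numbers gave no pairing. For the change of the ratio and both shRNA comparisons the number was 0 under every alternative run.

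The members' mean EV share was 0.754% without miR-127-3p and 0.596% without the 2 most abundant members, and the level relative to the spike-in was 152 and 121. With at least 10 reads, 6 members were read in cells. The sign changed for these log2 differences, none past the threshold: in EVs, miR-369-3p with the total count (0.055), and in cells, with TMM, median-of-ratios and total count, miR-127-3p (0.33, 0.23, 0.12) and miR-369-3p (0.32, 0.23, 0.12), and miR-127-3p with the replicate block (0.17) and the crossed block (0.18). Leaving out 1 library gave changes of the ratio of -2.68 to 0.30 for miR-127-3p, -1.47 to 0.42 for miR-369-3p, -3.81 to 6.24 for miR-376c-3p, -5.09 to 1.25 for miR-379-5p and -4.94 to 5.94 for miR-494-3p. In cells the ranges were -1.004 to 1.98, -0.82 to 1.08, -5.52 to 4.54, -2.75 to 3.60 and -6.74 to 4.14 in the same order. The causes were not tested. The limits are 2 libraries per group, a few cell reads behind most ratios and EV counts that are often 0 in 1 replicate.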
